A study of Homo sapiens with 24 samples.

Results

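Described here are 10 human genes whose products make small RNAs or carry out silencing with them, namely the 4 Argonaute genes AGO1, AGO2, AGO3 and AGO4, the 3 GW182 genes TNRC6A, TNRC6B and TNRC6C, the 2 RNase III genes DROSHA and DICER1, and TARBP2, which encodes a partner of Dicer. They were chosen by name, as the rows of the count table whose Ensembl identifiers carry these symbols. All 10 were found among the 20345 genes of the table, and all 10 were abundant enough to be tested in every comparison.

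The libraries came from A2058 cells, a line established from a human melanoma, so all 8 groups share 1 line. Cells were transfected with scrambled siRNA (siCTRL) or siRNA against LSM14A (siLSM14A), an RNA binding protein of P-bodies, and were then treated with hydroxyurea (HU, 10 mM for 2 h), which stalls DNA replication, or left untreated (NT). Total RNA and RNA of the heavy polysome fractions, which holds mRNAs bound by many ribosomes, were sequenced from 3 cultures of each of the 4 conditions, giving 24 polyA-selected libraries of 12 cultures. The question the design puts is which mRNAs change in level or in polysome loading when LSM14A is depleted, when HU is added, or with both.

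In the canonical route, DROSHA with its partner DGCR8 cuts primary microRNA transcripts in the nucleus, XPO5 exports the hairpins, and DICER1 with TARBP2 or PRKRA cuts them again in the cytoplasm. One strand is loaded into an Argonaute protein, which is guided by it to sites in mRNAs. The TNRC6 proteins bind Argonaute and recruit deadenylases, after which the mRNA is repressed and decays. Argonaute and TNRC6 proteins are found in P-bodies, the cytoplasmic granules that also hold LSM14A.

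Their positions are those of GRCh37, the same assembly as hg19. AGO4 (ENSG00000134698, chr1:36273617-36323491), AGO1 (ENSG00000092847, chr1:36335409-36396133) and AGO3 (ENSG00000126070, chr1:36396319-36538101) stand next to each other on the plus strand of chromosome 1, with 11917 bases between AGO4 and AGO1 and 185 bases between AGO1 and AGO3. TNRC6A (ENSG00000090905) is at chr16:24621530-24838953, TNRC6B (ENSG00000100354) at chr22:40440821-40731812 and TNRC6C (ENSG00000078687) at chr17:75954785-76104903, all on the plus strand. DROSHA (ENSG00000113360) is on the minus strand at chr5:31400601-31532303, DICER1 (ENSG00000100697) on the minus strand at chr14:95552565-95624347, and TARBP2 (ENSG00000139546) on the plus strand at chr12:53894705-53900215.

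Paralogs can share reads, so exact runs that coding sequences of family members have in common are shown here, with the shared bases in capitals. For the Argonaute genes on chromosome 1 and for TNRC6A and TNRC6C each is the longest of its pair. The coding sequences of the Argonaute genes were 70.8% to 75.4% identical in pairwise alignment and those of the TNRC6 genes 61.3% to 64.4%. The longest exact run shared by 2 coding sequences was 32 bases, between AGO1 and AGO3, in the exon numbered 12 of each canonical transcript (chr1:36372591-36372646 and chr1:36492770-36492825, plus strand):
AGO1: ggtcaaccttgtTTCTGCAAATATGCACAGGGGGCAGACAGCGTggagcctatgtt
AGO3: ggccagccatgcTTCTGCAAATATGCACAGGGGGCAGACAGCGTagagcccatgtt
AGO1 and AGO4 shared 26 bases in exon 14 (chr1:36379819-36379868 and chr1:36306800-36306849):
AGO1: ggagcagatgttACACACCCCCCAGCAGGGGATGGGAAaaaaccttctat
AGO4: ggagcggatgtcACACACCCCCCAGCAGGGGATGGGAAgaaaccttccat
AGO3 and AGO4 shared 25 bases in exon 5 (chr1:36439011-36439059 and chr1:36291315-36291363):
AGO3: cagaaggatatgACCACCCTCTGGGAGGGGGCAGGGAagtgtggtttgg
AGO4: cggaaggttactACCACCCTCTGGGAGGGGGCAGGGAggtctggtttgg
TNRC6A and TNRC6C shared 24 bases (chr16:24802189-24802236 in exon 6 and chr17:76046547-76046594 in exon 5):
TNRC6A: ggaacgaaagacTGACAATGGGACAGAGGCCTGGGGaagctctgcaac
TNRC6C: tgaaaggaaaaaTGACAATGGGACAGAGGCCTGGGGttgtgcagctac
Over whole transcripts the longest shared run was 43 bases, between AGO3 and AGO4, and is not printed. All of these are shorter than the 100-base reads, and the counts of the paralogs can thus be told apart. AGO2 overlaps 1 other annotated gene in a small part of its exons.

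The libraries held 24789280 to 40645263 counts in total RNA and 28776634 to 44897501 in polysomal RNA, and the scarcest member still had 91 counts in its lowest library (AGO4, polysomal RNA). The siRNA target LSM14A was checked first. In total RNA it was at 81.6, 85.1 and 86.1 CPM (counts scaled to library size by the TMM method) in siCTRL NT, 80.9, 91.0 and 85.9 in siCTRL HU, 7.30, 8.31 and 6.95 in siLSM14A NT, and 6.60, 7.69 and 6.14 in siLSM14A HU. The log2 change upon knockdown was -3.49 in NT and -3.67 in HU. Of 8 melanocytic markers, 6 (SOX10, PMEL, DCT, MITF, S100B and TYR) were above 70 CPM in every total RNA library, whereas MLANA reached 10.2 CPM and TYRP1 5.48 CPM at most. Of 3 markers of dedifferentiated melanoma cells, AXL was at 160 to 208 CPM and NGFR at 38.5 to 56.8 CPM in total RNA, and EGFR at 0.0716 CPM or below. Of the markers of other cells, KRT5 was at 0 in all 24 libraries, PTPRC at or below 0.217 CPM, PDGFRA at or below 2.14 CPM and KRT14 at or below 4.79 CPM, while LUM was at 13.9 to 43.4 CPM. These are bulk libraries, so fewer cells holding an mRNA and less of it per cell cannot be told apart.

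The first comparison is between the members themselves, in total RNA per length. Given as the median over the 12 total RNA libraries of CPM per kilobase of exon, the nuclease DROSHA led with 13.5, followed by TARBP2 with 9.31, TNRC6A with 7.42, DICER1 with 4.32 and AGO1 with 3.50. The lower levels per kilobase were 2.48 for AGO2, 2.28 for AGO4, 1.71 for TNRC6B, 1.64 for TNRC6C and 0.798 for AGO3. The exonic length counts every annotated exon (21153 bases for AGO3), and which isoforms were used was not measured. Canonical transcripts are shorter to unlike degrees, with 1510 against 4090 bases for TARBP2 and 5416 against 7782 for DROSHA. The order, and which gene leads it, thus depends on the length used. With exonic length, most neighbours in this order were separated in all 12 cultures, which does not test the choice of length. The exceptions were AGO2 and AGO4, which differed by 0.12 ± 0.14 on the log2 scale of CPM per kilobase (SD, n = 12 cultures, AGO2 higher in 9), and TNRC6B and TNRC6C, which differed by 0.03 ± 0.15 (TNRC6B higher in 6).

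Family makeup differed between the 2 fractions. AGO1 held a median of 38.9% of the summed CPM per kilobase of the 4 Argonaute genes in total RNA (37.3% to 40.8%) and 52.4% in polysomal RNA (47.5% to 62.2%), with no overlap between the fractions. AGO2, the Argonaute that can slice its target, held 27.3% in total RNA and 22.4% in polysomal RNA. AGO4 held 25.8% in total RNA (22.9% to 26.7%) and 14.3% in polysomal RNA (7.6% to 19.9%), again without overlap, and AGO3 held 8.8% and 9.4%. Among the GW182 genes, TNRC6A made up 68.7% in total RNA (66.1% to 70.8%) and 52.4% in polysomal RNA (42.0% to 57.7%), while TNRC6B made up 15.6% (13.3% to 17.7%) and 35.2% (30.2% to 48.0%). TNRC6C held 15.4% and 11.7%, with overlap.

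**Figure D1:**
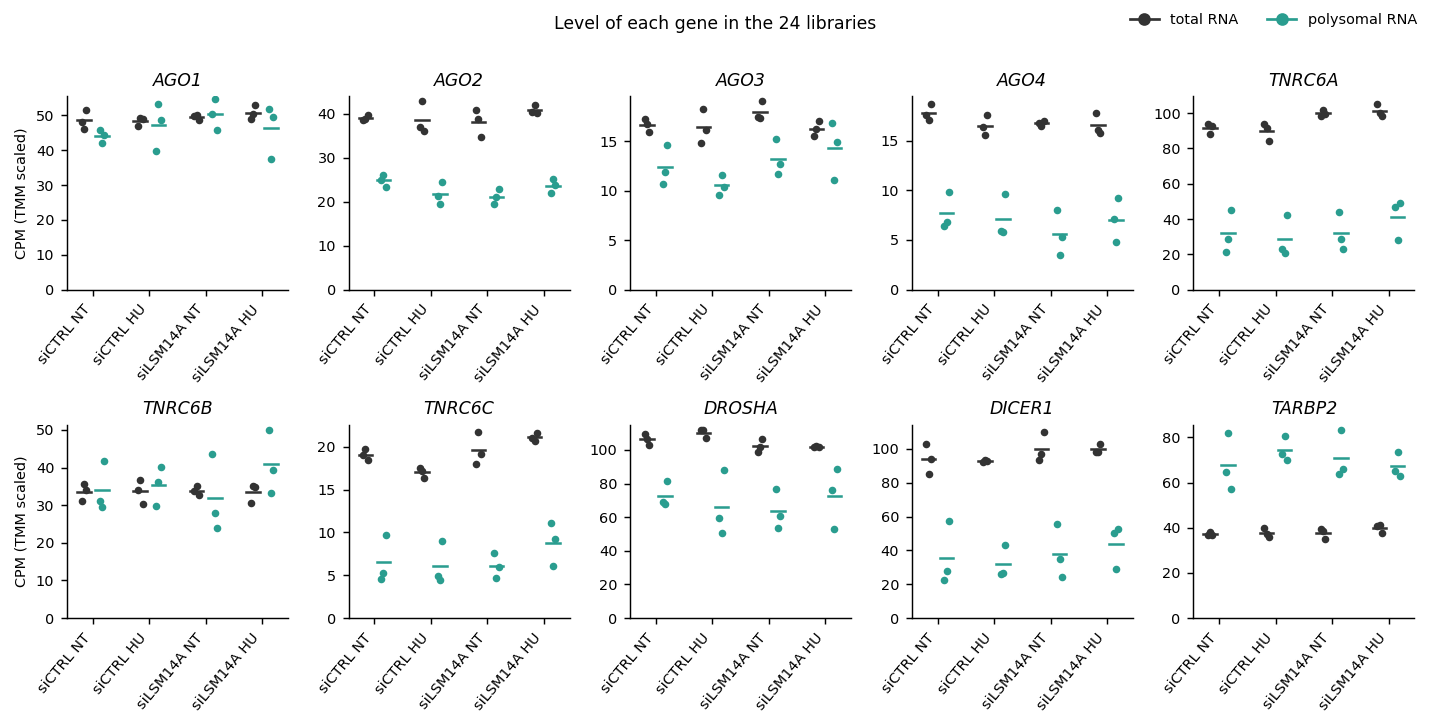
Level of each member in CPM (y axis from 0, TMM scaled, a scale of its own per panel) in the 4 conditions (x axis). Points are the 3 libraries of a group and horizontal marks their mean, black for total RNA and green for polysomal RNA. The fractions are far apart for TNRC6A, TNRC6C, DICER1, AGO4 and TARBP2 and overlap for AGO1 and TNRC6B, and the total RNA points lie closer together than the polysomal ones.

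The comparison of polysomal with total RNA asks how much of each mRNA sat in heavy polysomes relative to the typical mRNA of the same cells. TNRC6A, TNRC6C, DICER1 and AGO4 were 2.26 to 3.16 times lower in polysomal than in total RNA over the 4 conditions, and AGO2 and DROSHA were 1.4 to 1.77 times lower. TARBP2 was 1.68 to 1.99 times higher in polysomal RNA, and AGO1 and TNRC6B did not pass the test in any condition. In edgeR's quasi-likelihood test, 1 member was higher and 7 were lower in siCTRL NT, siCTRL HU and siLSM14A NT, and 1 was higher and 6 lower in siLSM14A HU. Over all genes tested, 63.8%, 73.5%, 64.4% and 66.8% passed in these 4 conditions, so a count of 7 or 8 of 10 is near what the table as a whole gives. By direction, 31.4% of all genes were higher and 32.3% lower in siCTRL NT, 36.2% and 37.4% in siCTRL HU, 32.1% and 32.3% in siLSM14A NT, and 32.8% and 34.1% in siLSM14A HU. The median log2 difference of the members was -0.60, -0.78, -0.74 and -0.64 in that order, beside medians of all genes tested of -0.03, -0.05, -0.03 and -0.04.

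The GW182 genes, the partners through which Argonaute recruits deadenylases, held the lowest and some of the highest values. TNRC6A was at 93.9, 88.1 and 92.7 CPM in total RNA of siCTRL NT, 94.0, 91.5 and 83.9 in siCTRL HU, 98.5, 101.9 and 99.4 in siLSM14A NT, and 105.2, 99.8 and 98.3 in siLSM14A HU. In polysomal RNA it was at 21.5, 28.96 and 45.2 CPM in siCTRL NT, 23.2, 20.6 and 42.2 in siCTRL HU, 44.04, 28.8 and 23.3 in siLSM14A NT, and 46.8, 28.1 and 48.9 in siLSM14A HU. Every polysomal library was below every total RNA library, and replicate 3 of both siCTRL conditions was well above the other 2 polysomal libraries of its group.
The log2 difference for TNRC6A between polysomal and total RNA was -1.53 ± 0.24 (SE, adjusted p = 0.000977) in siCTRL NT, -1.64 ± 0.23 (adjusted p = 8.63e-05) in siCTRL HU, -1.62 ± 0.21 (adjusted p = 0.000295) in siLSM14A NT and -1.29 ± 0.19 (adjusted p = 0.000496) in siLSM14A HU. Its mean log2 ratio over the 12 cultures stood at the 2.08 percentile of 12855 genes.

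TNRC6C was scarcer. It was at 19.01, 19.8 and 18.4 CPM in total RNA of siCTRL NT and at 4.62, 5.32 and 9.70 in the polysomal RNA of the same cultures. The other conditions held 16.3 to 21.7 CPM in total RNA and 4.42 to 11.1 in polysomal RNA, so these groups did not overlap either. The log2 difference was -1.56 ± 0.26 (adjusted p = 0.00125) in siCTRL NT, -1.48 ± 0.23 in siCTRL HU, -1.66 ± 0.19 in siLSM14A NT and -1.26 ± 0.19 in siLSM14A HU, each past the test.

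TNRC6B, their paralog, stood apart from both. Total RNA held 31.1, 35.7 and 34.1 CPM of it in siCTRL NT, 34.1, 36.7 and 30.3 in siCTRL HU, 33.8, 35.1 and 32.8 in siLSM14A NT, and 30.5, 35.2 and 34.8 in siLSM14A HU. Polysomal RNA held 31.03, 29.5 and 41.6, 29.9, 36.2 and 40.2, 43.7, 28.02 and 24.05, and 50.1, 33.3 and 39.4 CPM in the same order of conditions. The 2 fractions overlapped in every condition, and the log2 difference lay between -0.06 and 0.29, with adjusted p of 0.12 to 0.944. Within a culture, the log2 ratio of TNRC6B was above that of TNRC6A by 1.64 ± 0.31 (SD, n = 12 cultures) and above that of TNRC6C by 1.60 ± 0.28, in all 12 cultures for both.

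Among the enzymes that cut small RNA precursors, DICER1 had a ratio as low as those of TNRC6A and TNRC6C. In total RNA it was at 102.6, 85.1 and 94.2 CPM in siCTRL NT, 92.0, 93.4 and 93.1 in siCTRL HU, 93.3, 97.1 and 109.9 in siLSM14A NT, and 98.1, 97.9 and 102.9 in siLSM14A HU. In polysomal RNA it was at 22.2, 27.6 and 57.2, at 25.9, 26.5 and 43.4, at 55.5, 34.6 and 24.2, and at 50.4, 28.9 and 52.6 CPM. All 12 polysomal values were below all 12 total RNA values. The log2 difference was -1.40 ± 0.31 (adjusted p = 0.00474) in siCTRL NT, -1.53 ± 0.18 in siCTRL HU, -1.37 ± 0.26 in siLSM14A NT and -1.18 ± 0.20 in siLSM14A HU. Without replicate 2 the first of these was -1.32 with an adjusted p of 0.068. DROSHA, the nuclear enzyme, was at 98.7 to 111.9 CPM in total RNA and 50.6 to 88.9 in polysomal RNA, without overlap, and differed by -0.55 ± 0.11, -0.73 ± 0.18, -0.66 ± 0.14 and -0.49 ± 0.17, each past the test. Its call was lost without replicate 2 in siCTRL NT (adjusted p = 0.061), replicate 1 in siCTRL HU (0.058), replicate 3 in siLSM14A NT (0.066) or replicate 1 in siLSM14A HU (0.137).

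TARBP2, the RNA binding partner of Dicer, was the 1 member that passed edgeR's test as higher in polysomal RNA in the 4 conditions. It was at 36.7, 38.3 and 36.8 CPM in total RNA of siCTRL NT, 39.7, 37.03 and 35.9 in siCTRL HU, 39.4, 38.6 and 34.8 in siLSM14A NT, and 40.8, 41.3 and 37.8 in siLSM14A HU. In polysomal RNA it was at 64.5, 82.0 and 57.1, at 72.5, 80.6 and 70.0, at 63.7, 83.2 and 65.9, and at 65.3, 73.4 and 62.8 CPM. The 2 sets of 12 libraries did not overlap, and the log2 difference was 0.86 ± 0.15 (adjusted p = 0.00136), 1.00 ± 0.11 (adjusted p = 1.63e-05), 0.94 ± 0.13 and 0.75 ± 0.10. In each culture the log2 ratio of TARBP2 exceeded that of DICER1, by 2.32 ± 0.64 (SD, n = 12 cultures).

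The Argonaute genes were spread between these. AGO1 was at 46.2 to 52.9 CPM in total RNA and 37.6 to 54.6 in polysomal RNA, which overlap, and its log2 difference was -0.14 to 0.04 over the 4 conditions, with adjusted p of 0.253 to 0.869. AGO2 (ENSG00000123908, minus strand of chr8:141530255-141645732) was at 38.7, 38.8 and 39.7 CPM in total RNA of siCTRL NT and 25.002, 26.04 and 23.4 in polysomal RNA, with 34.7 to 42.8 and 19.6 to 25.1 CPM in the other conditions. The fractions of AGO2 did not overlap, with log2 differences of -0.66 ± 0.11, -0.82 ± 0.13, -0.83 ± 0.13 and -0.79 ± 0.10. AGO4 was at 15.6 to 18.7 CPM in total RNA and 3.54 to 9.85 in polysomal RNA, also without overlap, and differed by -1.22 ± 0.18, -1.21 ± 0.19, -1.54 ± 0.25 and -1.23 ± 0.21. AGO3 was at 14.8 to 19.04 CPM in total RNA and 9.57 to 16.8 in polysomal RNA, with overlap, and differed by -0.43 ± 0.15 (adjusted p = 0.029), -0.63 ± 0.14 (adjusted p = 0.00169), -0.42 ± 0.14 (adjusted p = 0.0264) and -0.19 ± 0.16 (adjusted p = 0.323). With the 2 libraries of a culture paired as a replicate block, the third of these values for AGO3 was -0.43 with an adjusted p of 0.056. Its call was also lost in siCTRL NT without replicate 1 (adjusted p = 0.183) or 2 (0.199) and in siLSM14A NT without replicate 2 (0.120) or 3 (0.192). The neighbours AGO1 and AGO4 on chromosome 1 differed in log2 ratio by 1.28 ± 0.45 (SD, n = 12 cultures), AGO1 being higher in all 12.

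**Figure D2:**
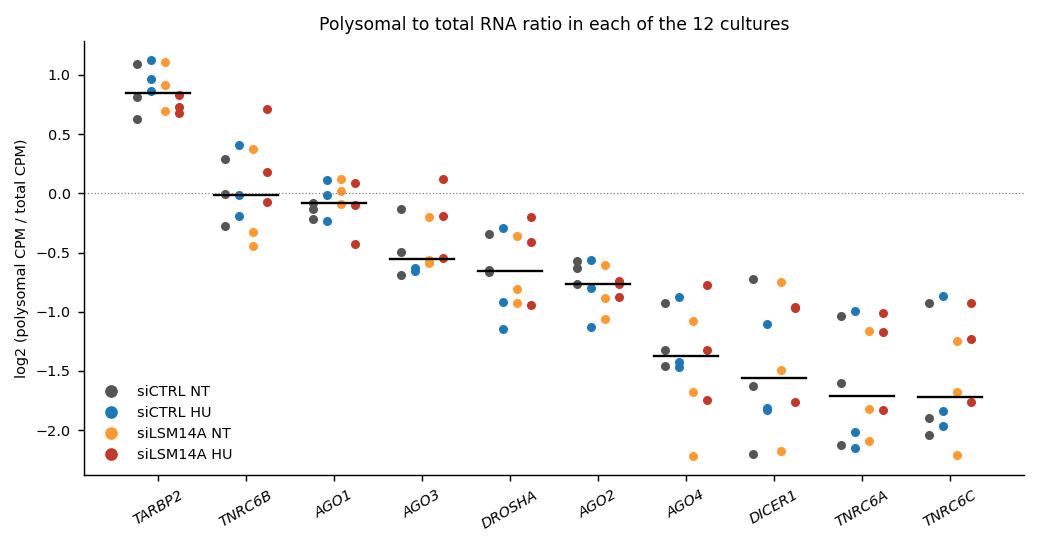
The log2 ratio of polysomal to total CPM (y axis) of the 10 members, ordered by median (x axis). Each point is 1 of the 12 cultures, coloured by condition, and the black mark is the median of the 12. TARBP2 lies above 0 in all 12 cultures, AGO1 and TNRC6B lie around 0, and DICER1, TNRC6A and TNRC6C lie between -2.21 and -0.72 in all 12.

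By median log2 ratio over the 12 cultures the order was TARBP2 (0.85), TNRC6B (-0.01), AGO1 (-0.08), AGO3 (-0.56), DROSHA (-0.66), AGO2 (-0.76), AGO4 (-1.38), DICER1 (-1.56), TNRC6A (-1.71) and TNRC6C (-1.72). AGO2 was above AGO4 in all 12 cultures and TARBP2 above TNRC6B in 11. The neighbours TNRC6B and AGO1, AGO3 and DROSHA, DROSHA and AGO2, AGO4 and DICER1, DICER1 and TNRC6A, and TNRC6A and TNRC6C differed by less than the SD of their difference between cultures. These ratios are relative to the typical gene. With library totals in place of TMM scaling, the ratios of all genes shifted by -0.34 (median over cultures, -0.48 to -0.22), and the medians of AGO1 and TNRC6B became -0.38 and -0.41.

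GC content moved with the ratio across the whole table. The log2 difference between fractions had a Spearman correlation with exonic GC content of 0.663, 0.709, 0.654 and 0.639 in the 4 conditions (12377 to 12528 genes, which share libraries and are not independent). DICER1 (39.0% GC) and AGO3 (39.1%) were the members poorest in GC and TARBP2 (56.9%) the richest. Beside genes within the same 2 points of GC content, DICER1 lay 0.81 log2 units below the median, AGO3 0.21 above it and TARBP2 0.40 above it. TNRC6C (51.7% GC) lay 1.60 below the median of 750 genes of its GC content, TNRC6A (44.7%) 1.21 below, AGO4 (44.7%) 0.93 below and AGO2 (46.9%) 0.62 below. TNRC6B, with nearly the GC content of TNRC6A and AGO4 (44.9%), lay 0.41 above. AGO1 (46.7%) lay 0.07 above and DROSHA (43.7%) 0.23 below.
With each library's GC trend removed, TNRC6A, TNRC6C, AGO2, AGO4 and DICER1 stayed lower in polysomal RNA past the test in all 4 conditions. In siCTRL NT the values were, for instance, -0.84 for DICER1 and -1.80 for TNRC6C. Of all genes tested, 54.5%, 57.2%, 55.6% and 58.3% passed in the 4 conditions after this correction. In siCTRL NT 3548 of 12431 genes were lower. AGO3 turned to positive values, 0.19 in siCTRL NT, 0.14 in siCTRL HU, 0.22 in siLSM14A NT and 0.34 in siLSM14A HU, the last with an adjusted p of 0.022. DROSHA no longer passed in the 2 HU conditions (-0.29 in siCTRL HU and -0.16 in siLSM14A HU). TARBP2 stayed higher but was reduced to 0.29 in siCTRL NT (adjusted p = 0.054) and 0.23 to 0.35 in the other conditions, and TNRC6B was higher in siCTRL HU (0.43, adjusted p = 0.017) and siLSM14A HU (0.56, adjusted p = 0.005).

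**Figure D3:**
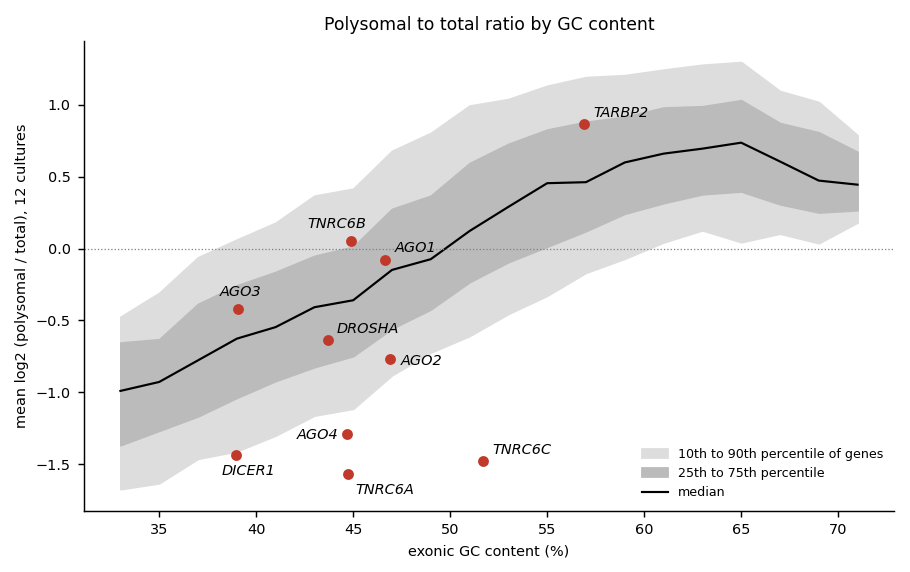
Mean log2 ratio of polysomal to total RNA over 12 cultures (y axis, from log2 CPM with a pseudocount of 0.5) against exonic GC content in percent (x axis). The line is the median of genes in bins of 2 points with at least 20 genes, the bands hold the 25th to 75th and the 10th to 90th percentiles, and the red points are the 10 members. TNRC6A, TNRC6C, AGO4 and DICER1 lie below the 10th percentile of their GC content, and TNRC6B, AGO3, TARBP2 and, by little, AGO1 above the median.

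Transcript lengths can be set beside these ratios. Across all genes, a longer 3′ UTR went with a lower ratio (Spearman -0.378 in siCTRL NT, 12382 genes). The members with the longest 3′ UTRs in the canonical transcript were AGO3 (16758 bases), TNRC6B (12570), AGO2 (11891) and AGO1 (10928), all at or above the 99.1 percentile of tested genes, while TNRC6A, with a ratio near the bottom, had 2414 bases. TARBP2 had the shortest, with 286 bases. The TNRC6 and DICER1 coding sequences are long, between 5499 and 5886 bases, and TNRC6B with 5499 was not low. Across all genes, coding length had hardly any correlation with the difference between fractions. Spearman's value was -0.005 in siCTRL NT, -0.017 in siCTRL HU, -0.065 in siLSM14A NT and 0.048 in siLSM14A HU.

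Culture by culture, the low members moved together, and some members with higher ratios moved with them. TNRC6A had log2 ratios of -2.13, -1.61 and -1.04 in siCTRL NT, -2.02, -2.15 and -0.99 in siCTRL HU, -1.16, -1.82 and -2.09 in siLSM14A NT, and -1.17, -1.83 and -1.01 in siLSM14A HU. DICER1 followed it with -2.21, -1.63 and -0.72, with -1.83, -1.82 and -1.10, with -0.75, -1.49 and -2.18, and with -0.96, -1.76 and -0.97. Both were highest in replicate 3 of siCTRL NT and siCTRL HU, replicate 1 of siLSM14A NT and replicates 1 and 3 of siLSM14A HU. Over the 12 cultures, Pearson's r between the ratios was 0.94 for TNRC6A and DICER1, 0.90 for TNRC6A and DROSHA, 0.88 for TNRC6A and TNRC6C, and 0.80 for AGO4 and DROSHA. TNRC6B and AGO3, with higher ratios than these, moved with them. For TNRC6B r was 0.83 with TNRC6C and 0.76 with TNRC6A and with DICER1. For AGO3 it was 0.79 with DICER1 and 0.73 with TNRC6A. AGO2 did not move with the low members (r = 0.04 with TNRC6A), nor did AGO1 (r = 0.07), and TARBP2 moved the other way (r = -0.72 with AGO3 and -0.55 with TNRC6A). The share of all genes with such r was not computed. These correlations describe 12 cultures of 4 conditions whose ratios share a library pair each.
Other measures differed between the same cultures. The Spearman correlation of the ratio with GC content over 12855 genes was 0.496 in replicate 3 of siCTRL NT and 0.431 in replicate 1 of siLSM14A NT, below the 0.563 to 0.737 of the other 10 cultures, which include replicate 3 of siCTRL HU at 0.737. Its part in the shared movement was not tested.

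**Figure D4:**
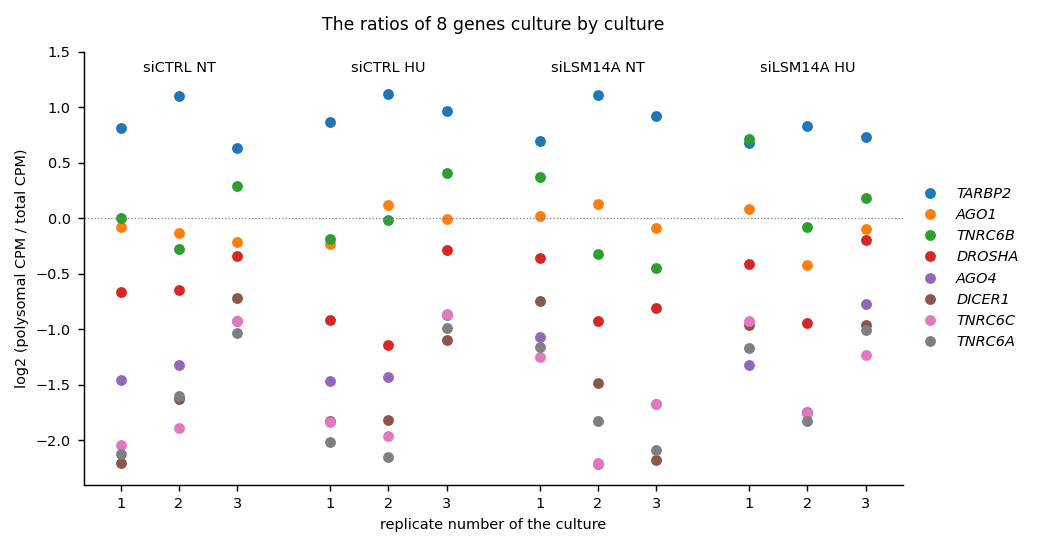
The log2 ratio of polysomal to total CPM (y axis) of 8 members in each culture, by condition and replicate number (x axis). Each column of points is 1 culture and each colour 1 gene. The grey, pink and brown points of TNRC6A, TNRC6C and DICER1 rise and fall together between cultures of 1 condition, over more than 1 log2 unit in siCTRL NT, while the blue points of TARBP2 stay above 0.6.

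The spread between cultures sat in the polysomal libraries. The coefficient of variation of CPM over the 12 libraries, all conditions together, was 3.70% for AGO1 to 9.35% for TNRC6C in total RNA and 9.43% for AGO2 to 35.9% for DICER1 in polysomal RNA. The means of the log2 ratio in the 4 conditions spanned less than the pooled SD between replicate cultures for 6 of the 10 members. Some were close to this line, such as AGO1 (0.164 against 0.169) and AGO2 (0.195 against 0.191). The share over all genes, and the span to be had without any difference between conditions, were not computed.

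The next comparisons ask what LSM14A depletion did to these mRNAs. In total RNA, no member passed edgeR's test (adjusted p under 0.05) in NT or in HU, where 0.566% and 0.802% of all genes did. At an unadjusted p under 0.05 there were 1 and 3 members, beside 1349 of 12544 and 1065 of 12475 genes. DESeq2 called 0 and 1 members, beside 1.59% and 1.52% of all genes. In polysomal RNA no member passed in NT or in HU (0.0162% and 0.0653% of all genes), and none by DESeq2. Here 0 and 1 members had an unadjusted p under 0.05, beside 242 of 12342 and 611 of 12256 genes. In the polysomal to total ratio no member passed (0% of all genes in NT and in HU), and none by DESeq2. Again 0 and 1 members had an unadjusted p under 0.05, beside 111 of 12757 and 487 of 12649 genes.

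The closest to a change was TNRC6C in total RNA upon HU. It was at 17.5, 17.2 and 16.3 CPM in siCTRL HU and 21.1, 20.7 and 21.7 in siLSM14A HU, which did not overlap. Its log2 change was 0.31 ± 0.07 (95% interval 0.15 to 0.46, adjusted p = 0.085). TNRC6A, DICER1 and DROSHA did not overlap between these groups either. DICER1 was at 92.0 to 93.4 CPM in siCTRL HU and 97.9 to 102.9 in siLSM14A HU, and DROSHA at 107.3 to 111.9 and 101.5 to 102.5. The share of all genes without overlap was not computed. Samples with the same replicate number deviated together in this comparison (r of 0.47, 0.22 and 0.41), and TNRC6C was higher by 0.31 once the replicate number entered as a block (adjusted p = 0.001). TNRC6A was higher by 0.17 with the block (adjusted p = 0.009) and by 0.16 ± 0.06 without it (adjusted p = 0.384), from 94.0, 91.5 and 83.9 CPM in siCTRL HU to 105.2, 99.8 and 98.3 in siLSM14A HU. With the block 6.85% of all genes passed and 3.23% were higher, beside 2 of the 10 members, and with the block and a correction for GC content 5.72% of all genes passed, beside 3 members. The summed level of the 3 dedifferentiated markers also did not overlap between these groups, at 208 to 218 CPM in siCTRL HU and 233 to 265 in siLSM14A HU, and their part in the result was not tested.
In NT the same genes differed by 0.04 ± 0.08 for TNRC6C and 0.13 ± 0.05 for TNRC6A (adjusted p = 0.404). The test of the difference between HU and NT gave 0.26 ± 0.10 for TNRC6C (adjusted p = 1.00). No member passed it in total RNA, polysomal RNA or the ratio (0% of all genes in each), and none by DESeq2. At an unadjusted p under 0.05 there were 1, 0 and 0 members, beside 367 of 12666, 134 of 12515 and 244 of 12855 genes.

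The other members changed little in total RNA. AGO2 differed by -0.04 ± 0.07 in NT and 0.07 ± 0.07 in HU, DICER1 by 0.09 ± 0.08 and 0.09 ± 0.05, and DROSHA by -0.06 ± 0.05 and -0.12 ± 0.05 (adjusted p = 0.508 in HU). The 95% intervals of all 40 changes in total RNA, over both knockdown comparisons and both HU comparisons, lay between -0.33 and 0.46. In polysomal RNA they reached from -1.14 to 1.18 and in the ratio from -1.06 to 1.09, so changes of 1 log2 unit were within the intervals of some members there. The median SE was 0.07 in total RNA, 0.22 in polysomal RNA and 0.23 for the ratio.

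In polysomal RNA and the ratio, AGO3 was the 1 member with an unadjusted p under 0.05 for knockdown in edgeR's fits without the replicate block. In HU its polysomal RNA was at 9.57, 11.6 and 10.4 CPM with siCTRL and 16.8, 11.1 and 14.9 with siLSM14A, which overlap. The log2 change was 0.45 ± 0.20 (adjusted p = 0.739), and that of the ratio 0.47 ± 0.21 (95% interval 0.02 to 0.92, adjusted p = 0.778). The change of the ratio had a Spearman correlation with GC content of -0.644 over 12649 genes in this comparison, and after the GC correction the value for AGO3 was 0.22 (adjusted p = 1.00). In polysomal RNA of the same comparison, TNRC6A (0.54 ± 0.28), TNRC6C (0.55 ± 0.29) and DICER1 (0.47 ± 0.25) had intervals that included 0, each with an adjusted p of 0.739. With the replicate block, TNRC6A, TNRC6C, DICER1 and AGO3 had unadjusted p under 0.05 there, beside 2079 of 12256 genes. Their adjusted p were 0.117, 0.186, 0.167 and 0.225, so none passed. The deviations of same-numbered samples had r of 0.04, 0.39 and 0.53 in this comparison. With DESeq2, AGO3 and TNRC6A had an unadjusted p under 0.05, beside 631 of 12256 genes, and an adjusted p of 0.787.

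**Figure D5:**
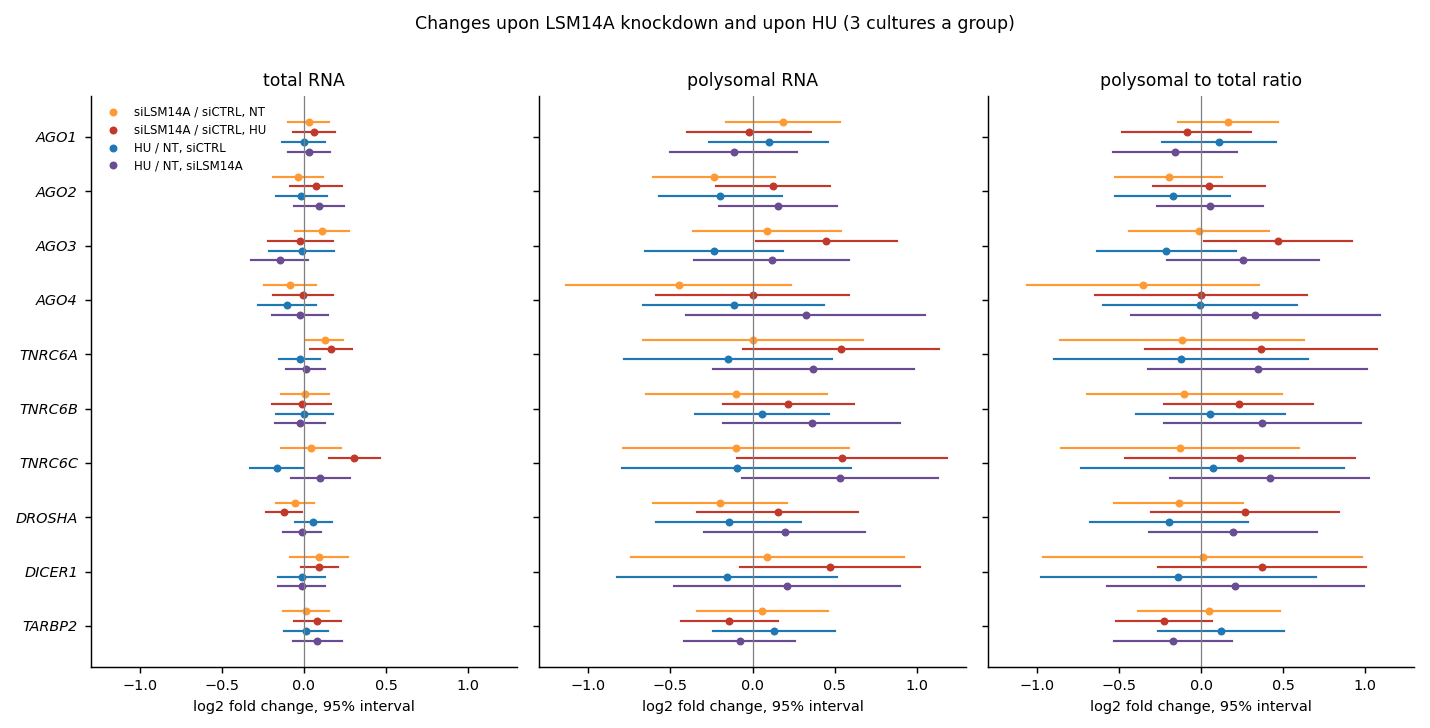
Log2 fold change (x axis) with its 95% interval (bars) for the 10 members (y axis) in total RNA, polysomal RNA and their ratio, from edgeR with 3 cultures a group. Colours give the 4 comparisons. The intervals in total RNA are narrow and lie close to 0, with TNRC6C upon HU the farthest at 0.31, and those of polysomal RNA and the ratio are wider.

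The HU comparisons ask how 2 h of replication stress changed the same mRNAs. No member passed edgeR's test in total RNA with siCTRL or siLSM14A (0% of all genes in each), nor in polysomal RNA or the ratio (0% in each). At an unadjusted p under 0.05 without the replicate block there was 1 member, TNRC6C in total RNA with siCTRL, beside 180 of 12506 genes. DESeq2 called no member. TNRC6C went from 19.01, 19.8 and 18.4 CPM in NT to 17.5, 17.2 and 16.3 in HU, a log2 change of -0.16 ± 0.07 (adjusted p = 1.00), and with siLSM14A from 17.99, 21.7 and 19.2 to 21.1, 20.7 and 21.7, a change of 0.10 ± 0.08. The changes of the Argonaute genes in total RNA were between -0.15 and 0.09 with either siRNA. In the ratio, the largest were 0.42 ± 0.28 for TNRC6C, 0.37 ± 0.28 for TNRC6B and 0.35 ± 0.31 for TNRC6A with siLSM14A, and all had intervals that included 0. The knockdown and HU comparisons share groups, and their values are not independent of each other.

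The wider pathway was described with 31 further genes (microRNA processing, export, tailing, loading and repression), of which 30 were tested. TRIM71, the one left out, had at most 4 counts in a library. In polysomal against total RNA, 15 were higher and 6 lower in siCTRL NT, 14 and 8 in siCTRL HU, 13 and 7 in siLSM14A NT, and 16 and 7 in siLSM14A HU. Of all genes, 31.4% were higher and 32.3% lower in siCTRL NT, 36.2% and 37.4% in siCTRL HU, 32.1% and 32.3% in siLSM14A NT, and 32.8% and 34.1% in siLSM14A HU. The median log2 difference of the pathway genes was 0.27, 0.23, 0.29 and 0.25, beside -0.03, -0.05, -0.03 and -0.04 over all genes. In all 4 conditions, 11 were higher and 6 were lower. Leaving out 1 culture brought the calls down to 12 in siCTRL NT (without replicate 2), 13 in siLSM14A NT (without replicate 3) and 15 in siLSM14A HU (without replicate 1). Of all genes, 29.5%, 40.8% and 45.8% passed in these 3 fits.
Those that were higher included SND1, a nuclease and RISC component, at 2.03 ± 0.15 (adjusted p = 0.000149) in siCTRL NT and 2.45 ± 0.16 in siCTRL HU, the RNA helicase MOV10 at 1.82 ± 0.15 and 2.23 ± 0.15, and the exporter XPO5 at 1.36 ± 0.11 and 1.60 ± 0.12. In siLSM14A HU the chaperone gene HSP90AB1 (1.53 ± 0.14), FXR2 (0.94 ± 0.09), of the fragile X family, and SND1 (2.16 ± 0.21) had the smallest p.
Those that were lower included LIN28B, which blocks let-7 processing, at -1.45 ± 0.18 in siCTRL NT, -1.63 ± 0.16 in siCTRL HU, -1.20 ± 0.19 in siLSM14A NT and -1.29 ± 0.18 in siLSM14A HU. TUT4, a uridyltransferase that LIN28 proteins recruit, TENT2, which adds nucleotides to microRNAs, FMR1 and FXR1 were likewise lower in all 4 conditions, as was TUT7. Their log2 differences were -1.34 to -0.85 for TUT4, -1.20 to -0.84 for TENT2, -1.10 to -0.81 for FMR1, -0.999 to -0.542 for FXR1 and -1.05 to -0.54 for TUT7. LIN28B was at 19.2 to 28.1 CPM in total RNA and 5.93 to 14.2 in polysomal RNA, and SND1 at 308.2 to 356.0 and 1003 to 2139, so neither overlapped between fractions. DROSHA's partner DGCR8 was higher in 3 of the 4 conditions and PRKRA, the other Dicer partner, in none.

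None of the 30 pathway genes passed edgeR's test for knockdown, HU or their interaction in total RNA, polysomal RNA or the ratio. Of these 450 tests, 14 had an unadjusted p under 0.05, and DESeq2 called 0. With the replicate block in total RNA upon HU, LIN28B (0.25 ± 0.06, adjusted p = 0.00561), ZSWIM8 (0.14 ± 0.04) and AJUBA (0.22 ± 0.07) were higher and PTGES3 (-0.17 ± 0.04) was lower in siLSM14A, beside 6.85% of all genes that passed in this fit.

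The 3′ UTRs were searched on the mRNA strand for the word AACGGAG, which was taken from earlier results of these same libraries. It was in the 3′ UTR of 2.14% of 12359 tested genes and of 1 member, TNRC6B, starting at base 121 of the 12570 of its 3′ UTR, in exon 23 on the plus strand (chr22:40719353-40719379), with the word in capitals:
TNRC6B: gaaaaaagaaAACGGAGagaaaaaaag
The total RNA of TNRC6B differed by 0.01 ± 0.07 in NT and -0.01 ± 0.08 in HU between siLSM14A and siCTRL.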

How the data were processed

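A2058 total and heavy polysomal RNA (15 to 50% sucrose gradients) was sequenced as paired 100-base stranded libraries. According to the methods of the study, fractions 13 to 17 were pooled, while another paragraph names the 4 heaviest. Per the labels and methods, the authors trimmed reads, aligned them to hg19 with STAR 2.6.1a and deposited raw counts per gene (Gencode 34). Here, 19637 of the 20345 identifiers matched Gencode 44 on GRCh37, and 19086 protein-coding genes entered the fits. All 24 columns were used.

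Counts were fitted with edgeR 4.0.16 (R 4.3.3, TMM, filterByExpr with minimum counts of 10 and 15, quasi-likelihood tests, Benjamini-Hochberg adjustment over all genes tested, adjusted p under 0.05), in 19 comparisons on the libraries of their groups, with the ratio as an interaction of fraction and condition. Intervals are at 95%. The study's own ratio test was not used. A GC correction took a loess curve per library (span 0.30), and DESeq2 1.42.0, a replicate block, other filters, scalings and leave-one-out fits were alternatives. Scripts were tested on simulated data. The text names the 10 members, LSM14A, and up to 3 pathway genes per direction and comparison with the smallest p. Genes called only under the block, TRIM71, TUT7, DGCR8 and PRKRA were named outside this rule, after their values were seen. The members and lists were chosen with earlier results of these data known.

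Replicates are separately numbered cultures, and within a fraction p-values measure the spread between these. For polysomal against total RNA and for the ratio, the 2 libraries of a culture entered the main fit as separate samples. Those p-values and SEs do not measure the spread of the ratio between cultures. For DICER1 in siCTRL NT the SD of the log2 ratio over 3 cultures was 0.75. Replicate pairs differed by a chi-square of 6.16 to 121 per gene, well beyond sampling noise. Same-numbered samples deviated together (every r over 0.1) in total RNA for the knockdown comparison under HU, in both fractions for HU against NT with siCTRL, and between the fractions of siLSM14A HU. Elsewhere not every r was over 0.1. For siLSM14A NT against siCTRL NT, r was -0.35, 0.38 and -0.26 in total RNA and -0.52, 0.37 and -0.48 in polysomal RNA. Between the fractions of siLSM14A NT it was -0.43, 0.20 and -0.29. What lies behind these negative values was not tested. By the methods, total and polysomal RNA came from the same cultures.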

Additional observations from a re-analysis of the deposited data

How the results depend on the processing

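For total RNA of siLSM14A against siCTRL upon HU, the count of members past the test was 0 with edgeR (0.802% of all genes), 1 with DESeq2 (1.52%), 2 with the replicate block (6.85%) and 3 with the replicate block and the GC correction (5.72%, DICER1 being added). For polysomal against total RNA in siCTRL NT it was 5 to 8 over the fits that left out 1 replicate. It was 5 without replicate 2, when AGO3, DROSHA and DICER1 were lost. Of all genes, 29.5% passed without replicate 2, beside 46.9% without replicate 1 and 67.2% without replicate 3. No other count of members moved by over 1.5 times. AGO3 changed sign in polysomal against total RNA with the GC correction (0.192, 0.140, 0.223 and 0.336 in siCTRL NT, siCTRL HU, siLSM14A NT and siLSM14A HU) and with the replicate block and GC correction (0.193, 0.135, 0.223 and 0.329), and the cause was not tested. Without replicate 1 in siLSM14A NT, TNRC6B was lower (-0.38, adjusted p = 0.043), and without replicate 2 in siLSM14A HU it was higher (0.46, adjusted p = 0.013). Beside the values given with the results, the replicate block changed no other call of a member. Polysomal values limit the rest, since their spread between cultures was several times that of total RNA.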

Other observations

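Over all 24 libraries, the genes whose log2 CPM was most like that of AGO2 were NR2C2 (Pearson r = 0.978), SPRING1 (0.977) and DLX1 (0.974). Those most like DICER1 were ICE1 (0.994), EHBP1 (0.993) and RAI14 (0.993). The 24 libraries fall into 2 fractions that differ for most genes, and these values describe that pattern over 12855 genes.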
